A study of Mus musculus with 6 samples.

Results

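Laminin chains are the subunits of the laminins, the proteins on which a basement membrane is built. The members described are the 9 genes Lama1 to Lama5, Lamb1 to Lamb3 and Lamc1, taken by symbol from 48397 symbols in the count files. A further laminin chain gene, Lamc3, is given beside the 9 for context. The libraries came from lungs of PdgfraEGFP/+ mouse pups at postnatal day 8, in which 1 Pdgfra allele carries the green reporter EGFP. Pdgfra encodes a PDGF receptor of mesenchymal cells. Dams received the anti-hedgehog antibody 5E1 (3 libraries) or control IgG (3 libraries) by intraperitoneal injection at E18.5. Both groups carry the same reporter genotype, and both hold only live cells sorted for EGFP. Pups were exposed through the dam, and the labels give no litter or pool for a library. Title numbers run through the IgG libraries before the 5E1 ones, so any order of handling and the antibody cannot be told apart. The study's question is the effect of hedgehog blockade on septation of the postnatal lung, in which PDGF signalling takes part.

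Each laminin is a trimer of 1 alpha, 1 beta and 1 gamma chain that is assembled in the cell before secretion. The alpha chain carries the globular end that integrins and dystroglycan bind, so it sets which receptors a laminin engages. In lung, mesenchyme, epithelium and endothelium all contribute laminin chains. The alpha1 chain is typical of embryonic basement membranes and the alpha5 chain of most epithelial and endothelial ones. The alpha2 and alpha4 chains are mostly made by muscle, nerve-associated and mesenchymal or vascular cells. The alpha3 and beta3 chains are parts of a laminin of epithelial attachment sites.

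Gene counts summed to 18857199 to 34318583 per 5E1 library and 16958433 to 28405457 per IgG library. The antibody's readout was lower in all 5E1 libraries: Ptch1, a receptor gene that the pathway induces, averaged 90.1 ± 10.4 CPM (counts per 1e6 gene reads of a library, with TMM factors) in 5E1 and 411 ± 4.92 CPM in IgG (SD, n = 3 each), with an edgeR adjusted p of 4.12e-06. Gli1 and Hhip, also induced by the pathway, had log2 fold changes of -1.12 and -2.37, with edgeR adjusted p of 0.00109 and 1.84e-05. Fibroblast defining markers were abundant in every library, their sum over 8 genes being 59020 to 104804 CPM in 5E1 and 46456 to 64657 CPM in IgG, led by Col3a1 and Col1a1. Of these 8, 3 were called higher, where 12.1% of all genes tested were. Pdgfra averaged 645 ± 73.3 CPM in 5E1 and 502 ± 77.5 CPM in IgG (edgeR adjusted p 0.0742, and 0.0290 with DESeq2). Epcam, 1 of 18 epithelial markers listed, was 0.810 to 1.85 CPM in 5E1 and 0.818 to 1.34 CPM in IgG. Other epithelial markers were far more abundant. Scgb1a1 averaged 514 ± 420 CPM in 5E1 and 368 ± 125 CPM in IgG, and Sftpc 183 ± 88.4 and 119 ± 4.88 CPM. Abca3, Ager and Hopx were called higher in 5E1 (edgeR adjusted p 0.0137, 0.00943 and 0.0201), and the other 15 did not pass.

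These promoter windows are shown because their genes, Lama5 and Lamb3, moved in opposite directions. The sequences are RefSeq windows on GRCm38.p6, each from 250 bases before to 50 bases after an annotated start, 5′ to 3′ on the gene's strand. Capitals mark the GC box GGGCGG or its reverse complement CCGCCC. The Lama5 window is chr2:180225810-180226109 on the minus strand. The Lamb3 window, the more upstream of 2 in the table, is chr1:193301744-193302043 on the plus strand.
Lama5: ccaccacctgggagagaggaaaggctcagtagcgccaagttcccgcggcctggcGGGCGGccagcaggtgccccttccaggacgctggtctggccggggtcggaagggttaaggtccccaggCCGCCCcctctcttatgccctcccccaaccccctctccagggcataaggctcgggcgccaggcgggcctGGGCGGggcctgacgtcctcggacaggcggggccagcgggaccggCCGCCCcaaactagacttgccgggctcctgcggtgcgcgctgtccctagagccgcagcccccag
Lamb3: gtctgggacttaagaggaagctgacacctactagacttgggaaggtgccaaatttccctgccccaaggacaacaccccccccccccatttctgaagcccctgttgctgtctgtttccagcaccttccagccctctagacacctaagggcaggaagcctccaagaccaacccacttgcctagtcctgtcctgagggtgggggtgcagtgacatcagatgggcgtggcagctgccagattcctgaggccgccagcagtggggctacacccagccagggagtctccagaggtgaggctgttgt
The Lama5 window held 4 GC boxes and was 72.7% G or C, against 59.3% for the Lamb3 window, which held none, and a median of 52.7% over all 32851 windows in the table. A GC box on either strand was present in 35.7% of those windows. The table matched 5 of the 9 members, with 6 windows, the others being of Lama2, Lamb1 and Lamb2. The consensus site of the GLI factors, GACCACCCA on either strand, was in none of the 6 windows and in 0.253% of all windows. Its core CCACCCA, which lies within it, was in none of the 6 and in 9.30% of all windows. The windows listed for Ptch1 and Hhip did not hold it either, so the search of these short windows describes letters and no more.

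All 9 laminin chain genes were tested, and each reached the filter level in all 3 libraries of both groups. At an adjusted p under 0.05 in edgeR's quasi-likelihood test, 2 of the 9 fell (Lama1 and Lama5), 1 rose (Lamb3) and 6 did not pass. Among all 16198 genes tested, 23.2% were called, 12.1% higher and 11.1% lower in 5E1, so that 52.3% of calls were higher, against 28.6% with library size alone. The median log2 fold change was 0.03 over the 9 members and 0.0009 over all genes. CPM did not overlap between groups for 4 of the 9 members, and for 42.2% of all genes (20.8% higher, 21.4% lower). In bulk RNA, fewer cells of a type and less RNA per cell cannot be told apart, which holds for every difference given here.

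**Figure D1:**
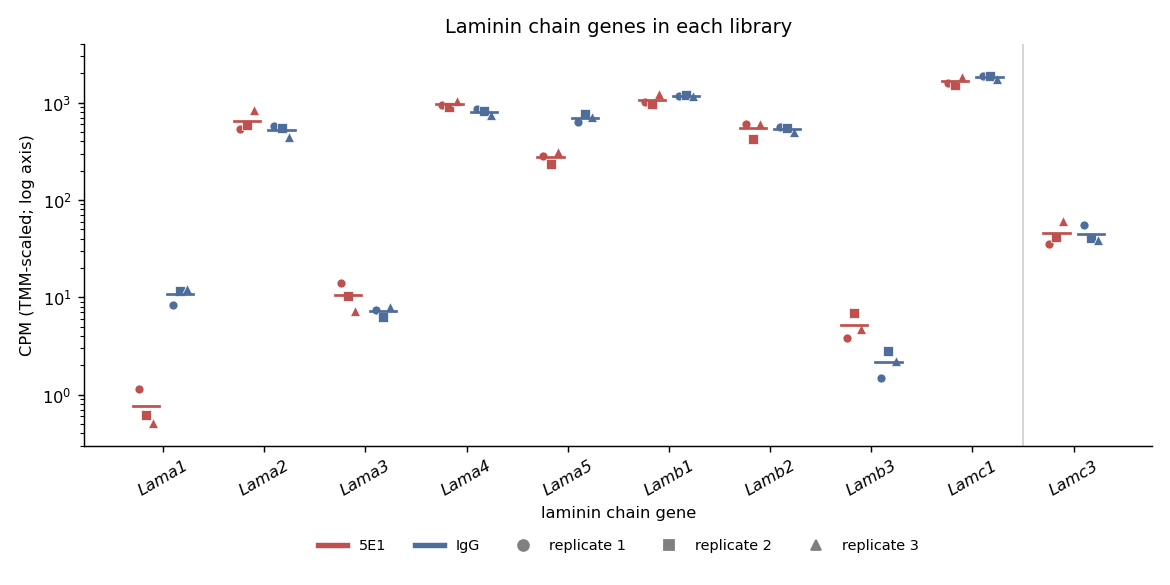
CPM of the 9 laminin chain genes and, right of the grey line, of Lamc3, on a log axis, with 1 point per library (shape gives the replicate) and a bar at the mean of 3. Lama1 and Lama5 lie lower in every 5E1 library than in any IgG library, Lamb3 lies higher, and the beta1, beta2 and gamma1 genes overlap.

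Among the alpha chain genes, Lama1 showed the lowest fold change of the family. It encodes the alpha1 chain of embryonic laminin and lies on chromosome 17 (67697259 to 67822647, plus strand, mm10). It had 21, 21 and 14 reads in the 5E1 libraries, against 242, 208 and 337 reads in the IgG libraries. As CPM these were 1.14, 0.625 and 0.515 in 5E1, against 8.24, 11.6 and 12.2 in IgG. Every 5E1 library lay far below the lowest IgG library, and 5E1 replicate 1 was the highest of its group. The level was 14.6-fold lower in 5E1 (95% interval 9.21 to 23.4), a log2 fold change of -3.87 (SE 0.31) with an edgeR adjusted p of 3.60e-05. Ordered from the lowest log2 fold change, Lama1 stood at place 13 of 16198 genes. Its log2 fold change was -4.21 to -3.66 with any 1 library left out. With few reads behind the 5E1 values, the size of the fold is less precise than its direction.

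Lama5, which encodes the alpha5 chain of the most widespread epithelial and vascular laminins, also fell. It lies on chromosome 2 (180176373 to 180225859, minus strand). Its CPM were 285, 236 and 309 in 5E1, against 625, 767 and 708 in IgG. The highest 5E1 library stood well below the lowest IgG library. The level was 2.53-fold lower in 5E1 (interval 2.09 to 3.06), with a log2 fold change of -1.34 (SE 0.13) and an edgeR adjusted p of 9.77e-05. The log2 fold change was -1.43 to -1.24 with any 1 library left out. In read numbers this was the larger loss: 21569 reads over the 5E1 libraries and 51547 over the IgG libraries, against 56 and 787 for Lama1.

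Markers of smooth muscle and pericytes moved in both directions. Of 12 such genes, 6 fell (Acta2, Tagln, Myh11, Cnn1, Actg2 and Mcam), 2 rose and 4 did not pass. Those that rose were the pericyte genes Kcnj8 (log2 fold change 0.64) and Abcc9 (0.85), at edgeR adjusted p of 0.00437 and 0.00449. Over all genes tested, 12.1% rose and 11.1% fell. The 12 genes were led in level by Acta2 and Tagln, and their summed level was 2904 to 4063 CPM in 5E1 and 4990 to 5318 CPM in IgG. None of the 12 was at 0. Their part in the falls of Lama1 and Lama5 was not tested.

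Lama2 and Lama4, the alpha chains of muscle, mesenchyme and vessel walls, did not pass. Lama4 (chromosome 10, 38965515 to 39110188, plus strand) had 937, 902 and 1031 CPM in 5E1, against 853, 811 and 742 CPM in IgG. All 5E1 libraries were above all IgG libraries, by a small margin. Its log2 fold change was 0.25 (interval 0.02 to 0.49, edgeR adjusted p 0.112), and DESeq2 gave an adjusted p of 0.0483. Lama2 (chromosome 10, 26980036 to 27619758, minus strand) had 536, 583 and 840 CPM in 5E1, against 582, 552 and 444 CPM in IgG. The groups overlapped, and 5E1 replicate 3 stood above the rest. Its log2 fold change was 0.31 (interval -0.08 to 0.70), with an edgeR adjusted p of 0.227, and of 0.0410 with no low-count filter. In GENCODE, 631 exon bases of Lama2 overlap Gm48084 on the opposite strand, a gene whose symbol the count files do not list.

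Lama3, which encodes the alpha3 chain of epithelial attachment laminin, was a low gene. It lies on chromosome 18 (12333819 to 12583013, plus strand). It had 14.1, 10.3 and 7.25 CPM in 5E1, against 7.43, 6.33 and 7.88 CPM in IgG. The groups overlapped, because 5E1 replicate 3 lay within the IgG range while replicates 1 and 2 lay above it. Its log2 fold change was 0.54 (interval 0.03 to 1.04, edgeR adjusted p 0.116). The adjusted p was 0.0366 without 5E1 replicate 3 and 0.0419 with no low-count filter, and the log2 fold change was 0.28 without 5E1 replicate 1.

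**Figure D2:**
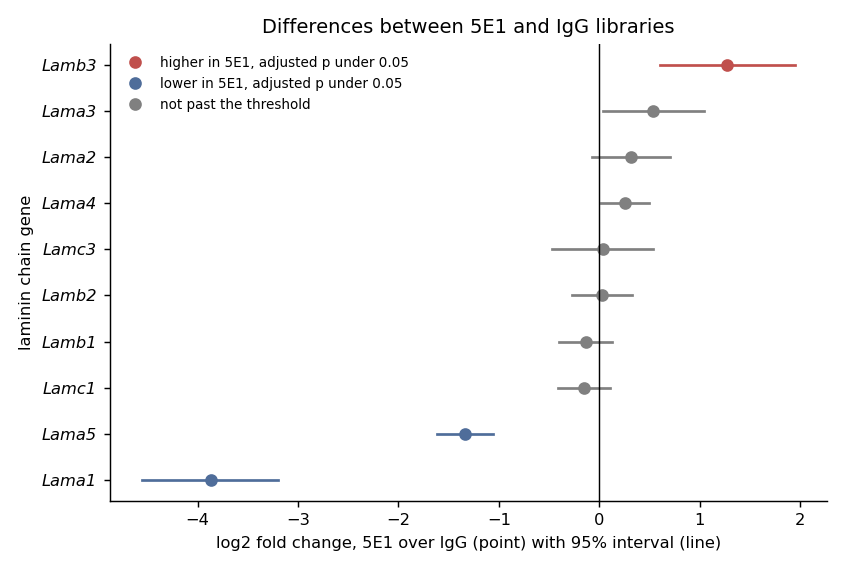
Log2 fold change of each laminin chain gene, 5E1 over IgG, with its 95% interval from the edgeR fit of 3 against 3 libraries. The intervals of Lama1 (-4.55 to -3.20) and Lama5 (-1.62 to -1.06) lie below 0, and those of Lama2, Lamb1, Lamb2, Lamc1 and Lamc3 span it.

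The beta1, beta2 and gamma1 chains are the shared partners of most alpha chains, and none of their genes passed. Lamb1 (chromosome 12, 31265234 to 31329644, plus strand) had 1016, 970 and 1234 CPM in 5E1, against 1178, 1203 and 1161 CPM in IgG. Replicate 3 of 5E1 lay above the IgG range and the other 5E1 libraries below it, and the log2 fold change was -0.14 (interval -0.40 to 0.12, edgeR adjusted p 0.438). Lamb2 (chromosome 9, 108479736 to 108490530, plus strand) had 600, 426 and 604 CPM in 5E1, against 555, 547 and 497 CPM in IgG. Replicate 2 was the low library of the 5E1 group, and the other two lay above the IgG range. The log2 fold change of Lamb2 was 0.03 (interval -0.27 to 0.33, edgeR adjusted p 0.914), and its sign turned to -0.12 with library size alone. Lamc1 (chromosome 1, 153218922 to 153332786, minus strand) encodes the gamma1 chain found in nearly all laminins outside the epithelial attachment sites. It had 1575, 1531 and 1839 CPM in 5E1, against 1867, 1876 and 1755 CPM in IgG. Only 5E1 replicate 3 reached the IgG range, and the log2 fold change was -0.15 (interval -0.41 to 0.10, edgeR adjusted p 0.380). For these 3 genes the intervals leave room for differences of up to about 1.33-fold lower (Lamc1) or 1.25-fold higher (Lamb2). The 5E1 libraries were also more spread, with coefficients of variation of 13.2%, 18.7% and 10.1% for Lamb1, Lamb2 and Lamc1, against 1.82%, 5.95% and 3.67% in IgG.

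Lamb3, which encodes the beta3 chain of epithelial attachment laminin, was the member that rose, at a low level. It lies on chromosome 1 (193207699 to 193343878, plus strand). It had 3.86, 6.85 and 4.75 CPM in 5E1, against 1.5, 2.80 and 2.21 CPM in IgG. Every 5E1 library was above every IgG library. The level was 2.42-fold higher in 5E1 (interval 1.52 to 3.85), with a log2 fold change of 1.27 (SE 0.30) and an edgeR adjusted p of 0.0129. The call ended without IgG replicate 1 (adjusted p 0.0531). Lamc3, a gamma3 chain gene with a narrower expression, had 35.2, 41.5 and 60.2 CPM in 5E1, against 54.8, 40.5 and 38.6 CPM in IgG. Its groups overlapped (log2 fold change 0.03, edgeR adjusted p 0.934, and a log2 fold change of -0.12 with library size alone).

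Marker genes of other cell types were read beside these low genes. Over all genes tested, 12.1% were called higher and 11.1% lower in 5E1. Epithelial markers summed to 540 to 1611 CPM in 5E1 and 479 to 738 CPM in IgG, led by Scgb1a1 and Sftpc. The high value was 5E1 replicate 2, at 1611 CPM, which was also the highest library for Lamb3. In this sum 5E1 replicates 1 and 3 (576 and 540 CPM) lay within the IgG range. Scgb1a1, its largest single part, had 256, 999 and 288 CPM in 5E1, against 376, 239 and 489 CPM in IgG. The overlap of the sums rests largely on that gene. Of 18 epithelial markers, 3 were called higher, near the share over all genes. Their log2 fold changes nonetheless all lay above 0, from 0.06 (Aqp5) to 1.39 (Krt19). The median of the 18 was 0.69, against 0.0009 over all genes. Without 5E1 replicate 2, the log2 fold change of Lamb3 was 1.01, at an edgeR adjusted p of 0.0348. Mesothelial markers, led by Upk1b and Msln, rose in 4 of 7 tested genes and summed to 134 to 251 CPM in 5E1 and 47.5 to 87.4 CPM in IgG. Leukocyte markers, led by Lyz2 and S100a9, rose in 6 of 10 tested genes and summed to 215 to 373 CPM in 5E1 and 97.1 to 119 CPM in IgG. Endothelial markers, led by Eng and Tek, rose in 2 of 12 genes, also near the share over all genes. Their median log2 fold change was 0.52, and of the 12 only Eng was below 0 (-0.07). They summed to 498 to 701 CPM in 5E1 and 493 to 589 CPM in IgG. Eng, which took most of that sum, averaged 369.8 CPM in 5E1 and 389 CPM in IgG, while Pecam1 had 27.4, 60.2 and 16.1 CPM in 5E1, against 16.3, 24.9 and 20.002 CPM in IgG, with 5E1 replicate 2 again the highest. Schwann cell markers, led by S100b, fell in 1 of 4 tested genes (S100b) and summed to 12.0 to 18.0 CPM in 5E1 and 23.3 to 34.7 CPM in IgG. No marker in these lists was at 0 in all 6 libraries. The part of such cells in the rise of Lamb3 was not tested.

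**Figure D3:**
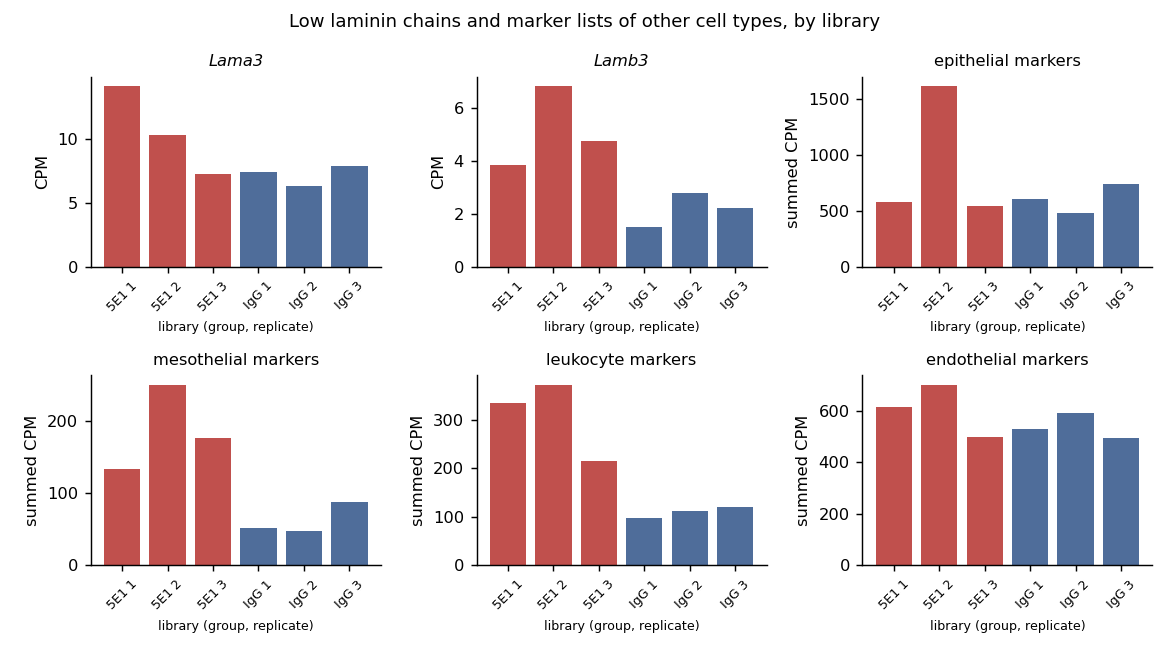
CPM of the low chains Lama3 and Lamb3 (first 2 panels) and summed CPM of 4 marker lists (other panels) in each library, bars starting at 0, with 5E1 libraries at the left of each panel. 5E1 replicate 2 has the highest bar for Lamb3 and epithelial markers (1611 CPM), and 5E1 replicate 1 the highest for Lama3.

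Levels of different chains were compared per kilobase of exon (RPKM). Lamc1 was the most abundant laminin gene in both groups, at 199 ± 20.1 RPKM in 5E1 and 222 ± 8.14 RPKM in IgG (SD, n = 3 each). Lamb1 followed with 108 ± 14.2 RPKM in 5E1 and 119 ± 2.16 RPKM in IgG, and Lamb2 with 89.3 ± 16.7 and 87.6 ± 5.22 RPKM in the same order of groups. The libraries of Lamb1 and Lamb2 overlapped in 5E1 and stood apart in IgG. Among alpha chain genes Lama4 had the highest mean, at 79.3 ± 5.54 RPKM in 5E1 and 66.5 ± 4.67 RPKM in IgG. In IgG its libraries overlapped those of Lama5 (61.5 ± 6.28 RPKM), which was slightly above Lama4 in replicates 2 and 3, with Lama2 below both at 32.2 ± 4.44 RPKM. In 5E1 the order of Lama5 and Lama2 was turned, with Lama2 at 39.97 ± 10.02 RPKM and Lama5 at 24.3 ± 3.25 RPKM, and their libraries did not overlap. Lamc3 came next, at 7.49 ± 2.14 RPKM in 5E1 and 7.32 ± 1.46 RPKM in IgG. Lama1, Lama3 and Lamb3 were each under 2 RPKM of exon length in every library. Of these, Lama1 was the lowest in 5E1 and the highest in IgG. With the longest annotated transcript as the length, Lamc1 and Lamb1 again led both groups and Lama4 led the alpha chains, but Lama4 (158 RPKM in 5E1, 133 RPKM in IgG) then exceeded Lamb2 (96.5 and 94.7 RPKM). Lama4 has 12068 bases of exon in all and 6046 in its longest transcript.

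The share of Lama5 in alpha chain mRNA was lower in every 5E1 library. Shares sum to 100%, so those of the other alpha chains are higher where that of Lama5 is lower, whatever their own level. Lama5 made up 18.3%, 15.7% and 16.5% of alpha chain counts per kilobase in the 5E1 libraries, against 33.7%, 39.6% and 40.7% in the IgG libraries. Lama4 made up 56.7%, 56.5% and 51.9% in 5E1, against 43.4%, 39.5% and 40.2% in IgG. For Lama2 the shares were 23.9%, 27.0% and 31.2% in 5E1, against 21.9%, 19.9% and 17.8% in IgG. None of these 3 shares overlapped between groups, and a share within a library does not depend on the scaling between libraries. The mean shares differed by -21.2 percentage points for Lama5, 14.0 for Lama4 and 7.55 for Lama2. Each had an exact permutation p of 0.1, the smallest that 3 against 3 allows, and 0.125 adjusted over the 5 alpha chains. Lama1 was under 1% in both groups, with 0.0557% ± 0.0275 in 5E1 and 0.686% ± 0.153 in IgG (exact permutation p = 0.1, n = 3 each). Lama3 made up 0.698% ± 0.276 in 5E1 and 0.417% ± 0.0673 in IgG (exact permutation p = 0.3, n = 3 each), and its groups overlapped. With the longest transcript as length the difference was -14.9 percentage points for Lama5, 10.2 for Lama4 and 4.998 for Lama2.

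**Figure D4:**
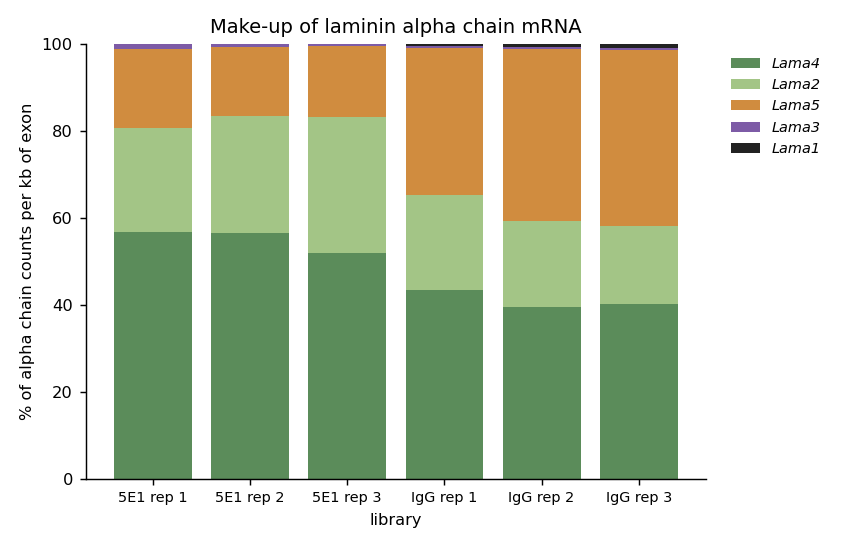
Share of each alpha chain gene in the summed alpha chain counts per kilobase of exon, in percent, 1 stacked bar per library with 5E1 at the left. The Lama5 band spans 15.7% to 18.3% in 5E1 and 33.7% to 40.7% in IgG, and the Lama4 and Lama2 bands are wider in 5E1.

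The sum of alpha chain counts per kilobase was set against Lamc1, the gene of their common gamma partner. The ratio was 0.719, 0.714 and 0.741 in 5E1, against 0.721, 0.751 and 0.720 in IgG, so the groups overlapped. It averaged 0.725 in 5E1 and 0.730 in IgG (geometric means), a log2 difference of -0.01 with an exact permutation p of 0.5 over 3 against 3 libraries. Its direction depended on the length used: with the longest transcript the ratios were 1.16 in 5E1 and 1.04 in IgG (log2 difference 0.16, exact permutation p = 0.1). With that length the groups did not overlap, at 1.15, 1.15 and 1.18 in 5E1 against 1.05, 1.06 and 1.01 in IgG. The beta1 to beta2 ratio was 1.22 in 5E1 and 1.36 in IgG, and the groups overlapped (log2 difference -0.16, exact permutation p = 0.3).

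Other genes whose libraries followed the called members were ranked by the root mean square difference of centred log2 CPM over the 6 libraries, among 10498 genes (10499 for Lamb3) averaging 5 CPM or more. Nearest to Lama1 were Col6a4, a collagen VI chain gene (difference 0.344), and St6gal2, a sialyltransferase gene (0.410). Their means were 5.88 and 1.03 CPM in 5E1 and 58.7 and 11.9 CPM in IgG. Nearest to Lama5 were Traip (0.0804), a ubiquitin ligase gene of the replication stress response, Fbxo5 (0.0822), an inhibitor of the anaphase-promoting complex, and Mgll (0.107), a monoglyceride lipase gene. The first pair are low genes, at 5.07 and 4.66 CPM in 5E1 and 12.4 and 11.2 CPM in IgG. Nearest to Lamb3 were Slc24a4, an ion exchanger gene (0.177), Lcp1, a leukocyte actin-bundling gene (0.178), and Fam105a (0.183). The likeness is a description over 6 libraries in 2 groups.

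Laminin networks are tied to collagen IV by nidogens and perlecan. Their genes Nid1, Nid2 and Hspg2 did not pass, with log2 fold changes of 0.07, 0.03 and 0.10 (edgeR adjusted p 0.748, 0.955 and 0.814). Of 21 partner genes tested, 5 rose, 2 fell and 14 did not pass, with a median log2 fold change of 0.25, where 12.1% of all genes rose and 11.1% fell. Col4a1, the main collagen IV chain gene, averaged 3583 ± 403 CPM in 5E1 and 3532 ± 117 CPM in IgG, with an edgeR adjusted p of 0.930 and a log2 fold change of 0.02 that turned to -0.13 with library size alone. The genes that rose were Smoc1 (log2 fold change 2.0) and Smoc2 (1.24), 2 calcium-binding matrix proteins, Ntn4 (0.49), a netrin that binds laminin, Tinagl1 (1.20) and Col4a4 (0.70), with edgeR adjusted p of 0.000216 to 0.0330. Pxdn, the peroxidase that crosslinks collagen IV, fell by 0.62 on the log2 scale (edgeR adjusted p 0.0109), and the other that fell was Ntn1 (-0.34). Sparc, a collagen-binding protein gene, averaged 10638 CPM in 5E1 and 7612 CPM in IgG, with an adjusted p of 0.0505 in edgeR and 0.00125 with DESeq2. The calls of Ntn4 (adjusted p 0.0605 without IgG replicate 3), Tinagl1 (0.0728 without IgG replicate 1, 0.0727 without 2) and Col4a4 (0.0642 to 0.0951 without 5E1 replicate 2 or 3 or IgG replicate 2 or 3) ended. With library size alone the calls of Ntn4 (0.0582) and Col4a4 (0.0642) ended, and that of Col4a4 also with the replicate block (0.0525) and the term for Y-linked reads (0.0547). The call of Ntn1 also ended without 5 of the 6 libraries in turn (0.0722 to 0.132). Without IgG replicate 2, 3 partners rose.

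Of 17 genes listed as laminin receptors or co-receptors at the cell surface, 3 rose, 5 fell and 9 did not pass (median log2 fold change -0.01), beside 12.1% of all genes higher and 11.1% lower. The list is broad, and not all of its genes are specific to laminin. Sdc4, a heparan sulfate co-receptor gene, averaged 381 ± 28.5 CPM in 5E1 and 153 ± 16.0 CPM in IgG (log2 fold change 1.32, edgeR adjusted p 3.98e-05). The related Sdc1 and Sdc2 fell (-0.61 and -0.44), as did the integrin genes Itga9 (-0.74) and Itgav (-0.40). Itga3, the alpha subunit of a receptor that prefers the alpha3 and alpha5 laminins, rose at a low level, with 15.4 ± 3.28 CPM in 5E1 and 7.49 ± 0.885 CPM in IgG. The edgeR adjusted p of these 5 was at most 0.0184. The other calls were Itga7 (0.70), an integrin alpha subunit of muscle, and the tetraspanin gene Cd151 (-0.36), at edgeR adjusted p of 0.0359 and 0.0256, and each call ended without 4 of the 6 libraries in turn (0.0540 to 0.127). Itgb1, the common beta subunit of the laminin-binding integrins, averaged 1765 CPM in 5E1 and 1877 CPM in IgG (edgeR adjusted p 0.624). Without IgG replicate 2, the calls of Sdc2 (0.0680) and Itgav (0.0727) ended and 2 receptor genes fell, and without IgG replicate 1 that of Sdc2 ended (0.0622) and 3 fell.

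Dystroglycan binds laminin through a sugar chain built by a set of glycosyltransferases. Of 22 genes for that chain and for the linkers of the dystroglycan complex, 4 fell, 1 rose and 17 did not pass (median log2 fold change -0.09), so 5 of 22 were called where 23.2% of all genes were, a share near the background. Pomgnt1, a glycosyltransferase gene of the list, averaged 37.5 ± 5.24 CPM in 5E1 and 53.9 ± 2.98 CPM in IgG (log2 fold change -0.53, edgeR adjusted p 0.00611). The linker gene Dtna fell (-0.42), as did Pomk (-0.45), of the sugar chain, and Sntb2 rose (0.33), at edgeR adjusted p of 0.0114 to 0.0475. Utrn, the most abundant of the list, averaged 144 CPM in 5E1 and 124 CPM in IgG (edgeR adjusted p 0.134). The call of Dtna ended without IgG replicate 2 (0.0505). Those of Pomk and Sntb2 each ended without at least 4 of the 6 libraries, at adjusted p of 0.0640 to 0.15. Without IgG replicate 2, 1 gene of the list fell, and without IgG replicate 1 or 5E1 replicate 3, 2 fell.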

How the data were processed

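Live EGFP-positive lung cells of PdgfraEGFP/+ pups were profiled by bulk RNA sequencing in 6 libraries, made with a stranded mRNA kit per the labels' protocols. The authors deposited raw read counts per gene symbol, with 48397 symbols per library and 5 summary lines. Per the submitters' processing notes, the tools included R 3.5.1, DESeq2 1.10.0, HTSeq 0.6.0, bedtools 2.17.0, Picard 1.126 and STAR 2.5.0c, and the build was mm10. Not given in the sources used here are the annotation, strandedness of counting and treatment of duplicates. These 5 lines hold no gene and entered neither library sizes nor tests. Across the 6 libraries, unaligned reads were 20.4% to 42.9% of reads, reads with several alignments 5.27% to 6.26%, ambiguous reads 1.94% to 2.66% and reads in no gene 4.60% to 7.15%.

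Genes were kept with filterByExpr of edgeR 4.0.16 (minimum count 10, minimum total 15), scaled by TMM and fitted with its quasi-likelihood test (robust, group as the only term) in R 4.3.3. P-values are two-sided, with Benjamini-Hochberg adjustment over the 16198 genes tested, and genes with an adjusted p under 0.05 were called. CPM values are on TMM-scaled library sizes. Fold changes use a prior count of 0.125, and the intervals are 95% intervals from the unshrunken coefficient and its standard error (SE). Levels per length (RPKM) divide CPM by the union of exons in GENCODE release M21, which is built on GRCm38 (mm10). Shares and ratios were compared by exact permutation over libraries, two-sided, with a smallest possible p of 0.1 for 3 against 3. The scripts were tested on simulated data. No pair of libraries within a group agreed within sampling noise, the chi-square over degrees of freedom being 16.1 to 55.8.

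Alternatives were DESeq2 1.42.0, limma-voom (limma 3.58.1), RLE factors, library size alone, 2 other filters, a fit that was not robust, a block for the replicate number, a term for the 2 libraries without Y-linked reads (5E1 replicate 1 and IgG replicate 3), each library left out in turn, and 2 other treatments of length. The laminin genes, the gene lists and the tests were chosen with earlier results of these data known. All 9 laminin genes were named. In 3 lists of related genes the 6 called members of smallest p and the 2 of highest level were named, and each called laminin gene was given the 3 genes of likest pattern. Other genes named were chosen after their values were seen. Reads are not independent molecules, and the labels do not tie libraries to pups, litters or pools, so the spread behind a p-value is that between these samples and may be technical. Some genes that these rules select are not reported here.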

Additional observations from a re-analysis of the deposited data

Results flagged for a closer look

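Of the lines that the files give outside the gene rows, those for reads in no gene and for reads with several alignments held a larger share in every 5E1 library than in any IgG library. Reads in no annotated gene averaged 6.53% of all reads in 5E1 (6.17% to 7.15%) and 4.91% in IgG (4.60% to 5.37%). Reads with several alignments averaged 5.996% in 5E1 (5.70% to 6.26%) and 5.33% in IgG (5.27% to 5.40%). Neither kind of read enters the laminin values, and both differences are given as values only.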

How the results depend on the processing

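The falls of Lama1 and Lama5 kept their direction and their call under all 15 alternatives, with log2 fold changes of -4.21 to -3.66 and -1.49 to -1.24. The number of laminin chain genes called higher was 2 under DESeq2 (which added Lama4), 3 without the low-count filter (which added Lama2 and Lama3), and 0 of 8 tested where at least 5 CPM in 3 libraries was asked, edgeR then having 2 at an unadjusted p under 0.05 and Lamb3 being left out. It was 0 to 2 with 1 library left out, the 0 coming without IgG replicate 1, where edgeR had 1 at an unadjusted p under 0.05. Partners called higher numbered 3 with library size alone, 9 under DESeq2, 9 without the low-count filter and 3 to 6 with 1 library left out. Partners called lower numbered 1 with RLE factors, the stricter filter, the replicate block or the term for Y-linked reads, and 1 to 2 with 1 library left out. Receptors called higher numbered 5 with no low-count filter, and receptors called lower 2 to 5 with 1 library left out. Dystroglycan genes called higher numbered 0 with library size alone (0 at an unadjusted p under 0.05) and 0 with the replicate block (1 at an unadjusted p under 0.05), against 1 with DESeq2, and 0 to 1 with 1 library left out. Those called lower numbered 2 with the stricter filter and 1 to 4 with 1 library left out. The alpha to gamma ratio turned from a log2 difference of -0.01 to 0.16 with the longest transcript and 0.042 with no division by length, and was -0.028 to 0.0079 with 1 library left out. Log2 fold changes near 0 also turned sign. Library size alone gave -0.12 for Lamb2, -0.12 for Lamc3 and -0.13 for Col4a1. With 1 library left out they spanned -0.062 to 0.17 for Lamb2 (below 0 without 5E1 replicate 1 or 3 or IgG replicate 3), -0.22 to 0.21 for Lamc3 (below 0 without 5E1 replicate 3 or IgG replicate 2 or 3) and -0.065 to 0.0998 for Col4a1 (below 0 without 5E1 replicate 3 or IgG replicate 3). The cause was not tested. Library size alone moved the median of all genes by -0.14, so 28.6% of its calls were higher, against 52.3% with TMM. Over all genes 3757 were called, and 2305 to 3704 with 1 library left out. Replicate numbers did not pair the samples: deviations of libraries with the same number correlated at -0.106, -0.0365 and -0.0854. With the replicate block 3220 genes were called, and Lama1, Lama5 and Lamb3 kept their calls (adjusted p 0.000281, 0.000417 and 0.00811). Read numbers limit Lama1 in 5E1, with 14 to 21 reads a library.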
